A study of Homo sapiens with 8 samples.

Results

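The genes described here are solute carriers, the membrane proteins that move sugars, amino acids, ions, metals, vitamins and nucleotide sugars across the plasma membrane and the membranes of organelles. They were chosen by symbol: every probe set that the array's annotation assigns to 1 gene whose symbol starts with SLC and a number, leaving out the SLC7, SLC25 and SLC39 families and SLC3A2, SLC1A5 and SLC38A2. This gave 625 probe sets of 293 genes in 54 families, out of 19775 genes with a probe set of their own. Of the 293 genes, 271 are protein-coding, 18 are long noncoding RNAs named after a neighbouring carrier gene and 4 are pseudogenes. The rule on symbols also took in SLC2A4RG, which encodes a transcription factor, and SLC4A1AP, which encodes a protein that binds an anion exchanger; neither is a carrier. SLC16A1 and SLC16A3 were not analysed here.

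Most solute carriers are not driven by ATP directly. They pass their substrate down its own gradient, or couple it to the movement of sodium, protons, chloride or a counter-substrate, so that many of them draw on the sodium gradient kept up by the sodium-potassium pump. Most are made on the endoplasmic reticulum as proteins that cross the membrane many times and are sorted from there to the plasma membrane, the Golgi, the lysosome or synaptic vesicles. Family numbers group carriers of similar sequence, and members of a family often share a class of substrate.

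The cells were H1, an established line of human embryonic stem cells, grown on a feeder layer of irradiated mouse embryonic fibroblasts. A flow cytometer divided the cells by their forward and side scatter, which vary with cell size and granularity, into a small and a large subpopulation, with no other difference in treatment given by the labels. Each group had 4 sorts, which the submitters describe as biological repeats that were independent, and the total RNA of each sort was hybridised to 1 Affymetrix U133 Plus 2.0 array. The comparison asks which transcripts distinguish small from large cells. Labelling started from the same amount of total RNA for every array and intensities were brought to one distribution across arrays, so a value is a share of the RNA measured. Less RNA of a gene per cell and fewer cells that express it cannot be told apart.

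As deposited, the 75th percentile of intensity was 45.4 to 103.5 units on the small arrays and 41.9 to 105.6 units on the large arrays. Between the 3′ and 5′ control probe sets of GAPDH and ACTB, a sign of RNA quality, the mean log2 difference was 2.36 ± 0.30 in small and 2.12 ± 0.53 in large cells (SD, n = 4 each, exact two-sided permutation p = 0.4). It lay between 1.94 and 2.66 on the small arrays, while large array 1 was at 2.91 and large arrays 2 to 4 were between 1.83 and 1.89. Of 8 marker genes of pluripotent cells 7 were measured above the filter, at a median level of 10.7, and 0 of them passed the test. Their summed normalized level was 13571 to 15140 on the small arrays and 14069 to 15984 on the large arrays. Of the 7 fibroblast markers measured, 0 passed, and they summed to 1057 to 1953 on the small arrays and 1346 to 2698 on the large arrays; of the 13 measured markers of neural cells, trophoblast and endoderm, 0 passed.

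Levels are log2 intensities after quantile normalization, differences are small minus large with their moderated standard error (SE), and a gene is called when the adjusted p of limma, taken over all 14726 genes tested, was under 0.05. Of the 293 solute carrier genes, 218 had a probe set whose mean over the 8 arrays passed the filter on low values. The other 75 did not, among them every gene of the urea transporters (SLC14) and of the bile acid and steroid exporter SLC51. In small cells 9 of the 218 were called lower, which is 4.13%, where 1.69% of all genes were, and 0 were called higher, where 0.299% of all genes were. At an unadjusted p under 0.05, 49 solute carriers (22.5%) were lower and 5 (2.29%) higher, against 8% and 8.51% of all genes. The 4 small and the 4 large values did not overlap for 32 solute carriers lower in small cells (14.7%, against 5.07% of all genes) and for 4 higher in small cells (1.83%, against 4.94%). The 9 called genes were SLC4A7, SLC16A10, SLC12A2, SLC27A3, SLC19A2, SLC15A4, SLC16A9, SLC38A9 and SLC38A1, and they came from 7 families.

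The count of calls moved with single arrays. It was 0 without small array 2 or without large array 4, 1 without small array 1 or large array 3, 4 without small array 3 or large array 2, 8 without small array 4 and 17 without large array 1. The count over all genes moved as well. Of all genes, 79, 68, 60 and 79 were lower without small array 2, large array 4, small array 1 and large array 3. Without small array 3, large array 2, small array 4 and large array 1 they were 206, 142, 243 and 357, against 249 with every array. With the 3′ to 5′ measure as a covariate, a fit added after the data had been seen, 1 carrier was lower (SLC16A10) and 1 higher (SLC27A5). In that fit 135 of all genes were lower and 20 higher. All 9 genes lost their call without small array 2 and without large array 4. SLC4A7 alone kept it without small array 1, SLC16A10 alone without large array 3, and all 9 kept it without large array 1. Over all alternatives and left-out arrays, 187 of 187 values of the 9 genes were negative. The genes were picked on these same arrays, where their groups do not overlap. Their sign was therefore largely fixed in advance and is no separate support.

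The median difference of the 218 solute carriers was -0.27, against 0.05 for all 14726 genes, and 155 of them (71.1%) had a negative difference, against 44% of all genes. The median over solute carriers of the deviation from each gene's mean was -0.16, -0.13, -0.04 and -0.02 on small arrays 1 to 4, against 0.10, 0.14, 0.18 and 0.20 on large arrays 1 to 4. All 4 small arrays lay below all 4 large arrays. The 207 protein-coding genes had a median of -0.29 and the 11 noncoding RNAs and pseudogenes of 0.07. The 11 were dimmer, at a median level of 4.47 against 5.58, with a median SE of 0.34 against 0.28. In the SLC7, SLC25 and SLC39 families with SLC3A2, SLC1A5 and SLC38A2, which were left out by the rule, the median over 71 genes was -0.03, with 6 lower (8.45%) and 0 higher.

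The median of the carriers lay further from 0 among well measured genes. Of the 72 solute carriers with a mean level above the median of all genes, 63 (87.5%) had a negative difference and the median was -0.46, against 0.04 for the 7363 genes of all kinds in that range. For the 146 carriers below it, 92 (63.0%) were negative and the median was -0.17, against 0.06 for all genes in that range. All 9 called genes were in the upper range. The median SE was 0.19 in the upper and 0.36 in the lower range of carriers, so a difference of the same size was less likely to pass in the lower one.

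**Figure D1:**
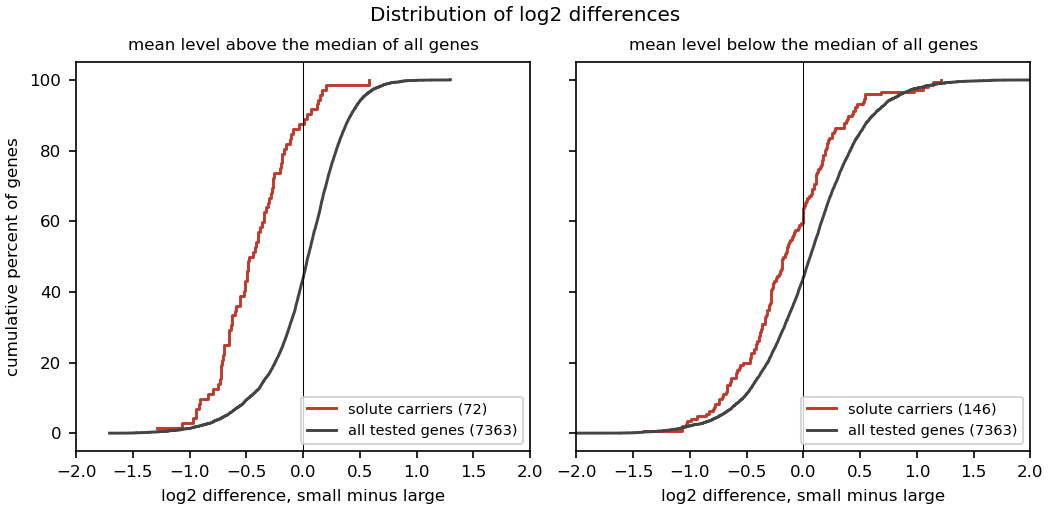
Cumulative percent of genes (vertical axis) by log2 difference, small minus large (horizontal axis), for solute carriers and for all tested genes, split at the median level of all genes. The line of the carriers runs left of that of all genes in both panels, with medians of -0.46 against 0.04 (above) and -0.17 against 0.06 (below).

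The largest called difference was that of SLC4A7, an electroneutral sodium bicarbonate cotransporter that brings bicarbonate into the cell and so counters acid. On small arrays 1 to 4 it was at 7.51, 6.47, 6.73 and 7.16, against 7.76, 8.0, 8.84 and 8.42 on large arrays 1 to 4. The highest small array lay below the lowest large one, and small cells had 2.44-fold less of it (-1.29 ± 0.26 SE on the log2 scale with 4 arrays a group, adjusted p = 0.0262). Its other tested probe set differed by -0.24 ± 0.25 and did not pass. SLC16A10, a carrier of aromatic amino acids in the monocarboxylate transporter family, was at 6.32, 6.20, 6.31 and 6.74 on the small arrays, against 7.24, 7.84, 7.32 and 7.44 on the large arrays. It was 2.09-fold lower (-1.07 ± 0.19 SE, adjusted p = 0.0171), and its other tested probe sets differed by -0.93 and -0.56. SLC27A3, an acyl-CoA synthetase of the fatty acid transport protein family, was at 6.08, 6.46, 5.74 and 6.50 on the small arrays, against the closely spaced values of 7.10, 7.14, 7.12 and 7.18 on the large arrays. That is 1.92-fold lower in small cells (-0.94 ± 0.20 SE, adjusted p = 0.0289). SLC19A2, a thiamine transporter, was at 7.07, 6.89, 7.35 and 7.55 in small cells, against 7.94, 7.79, 8.42 and 8.37 in large cells, without overlap. It was 1.89-fold lower (-0.92 ± 0.20 SE, adjusted p = 0.0332).

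SLC12A2, described below with its family, completes the 5 called genes with the largest differences, and the start regions of these 5 are shown. Each line gives the 120 bases just before the first listed start (RefSeq, GRCh38.p14), 5′ to 3′ on the gene's strand, with matches to GGGCGG or CCAAT on either strand in capitals. They lie at chr3:27484385-27484504 (minus strand), chr6:111087383-111087502 (plus strand), chr5:128083646-128083765 (plus strand), chr1:153775287-153775406 (plus strand) and chr1:169485971-169486090 (minus strand).
SLC4A7: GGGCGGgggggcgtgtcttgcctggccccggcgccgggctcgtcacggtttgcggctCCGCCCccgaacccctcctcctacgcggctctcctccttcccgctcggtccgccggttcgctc
SLC16A10: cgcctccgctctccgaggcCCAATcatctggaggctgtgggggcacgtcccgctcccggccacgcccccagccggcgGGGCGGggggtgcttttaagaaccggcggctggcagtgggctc
SLC12A2: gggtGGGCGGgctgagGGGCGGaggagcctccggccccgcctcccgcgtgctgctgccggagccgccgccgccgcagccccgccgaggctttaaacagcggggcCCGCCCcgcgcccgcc
SLC27A3: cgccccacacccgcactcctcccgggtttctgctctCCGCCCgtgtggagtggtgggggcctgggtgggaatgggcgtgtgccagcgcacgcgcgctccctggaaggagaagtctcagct
SLC19A2: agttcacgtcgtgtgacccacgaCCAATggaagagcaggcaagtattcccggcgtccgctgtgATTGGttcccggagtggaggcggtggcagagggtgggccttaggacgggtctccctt
The word CACGTG was also searched on both strands, and none of these words contains another. In windows of 300 bases, 250 before to 50 after the start, GGGCGG was found at 116 of 174 tested carriers with a listed promoter (66.7%), against 65.9% of 11776 tested genes. CCAAT was found at 32.2% of the carriers and 36.4% of all genes, and CACGTG at 10.3% and 9.78%. Of the 9 called genes 8 had GGGCGG, 4 had CCAAT and 1 had CACGTG. The median content of G and C was 66.7% for the carriers and 64.7% for all genes. These shares describe the letters of the windows and not the binding of a factor.

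**Figure D2:**
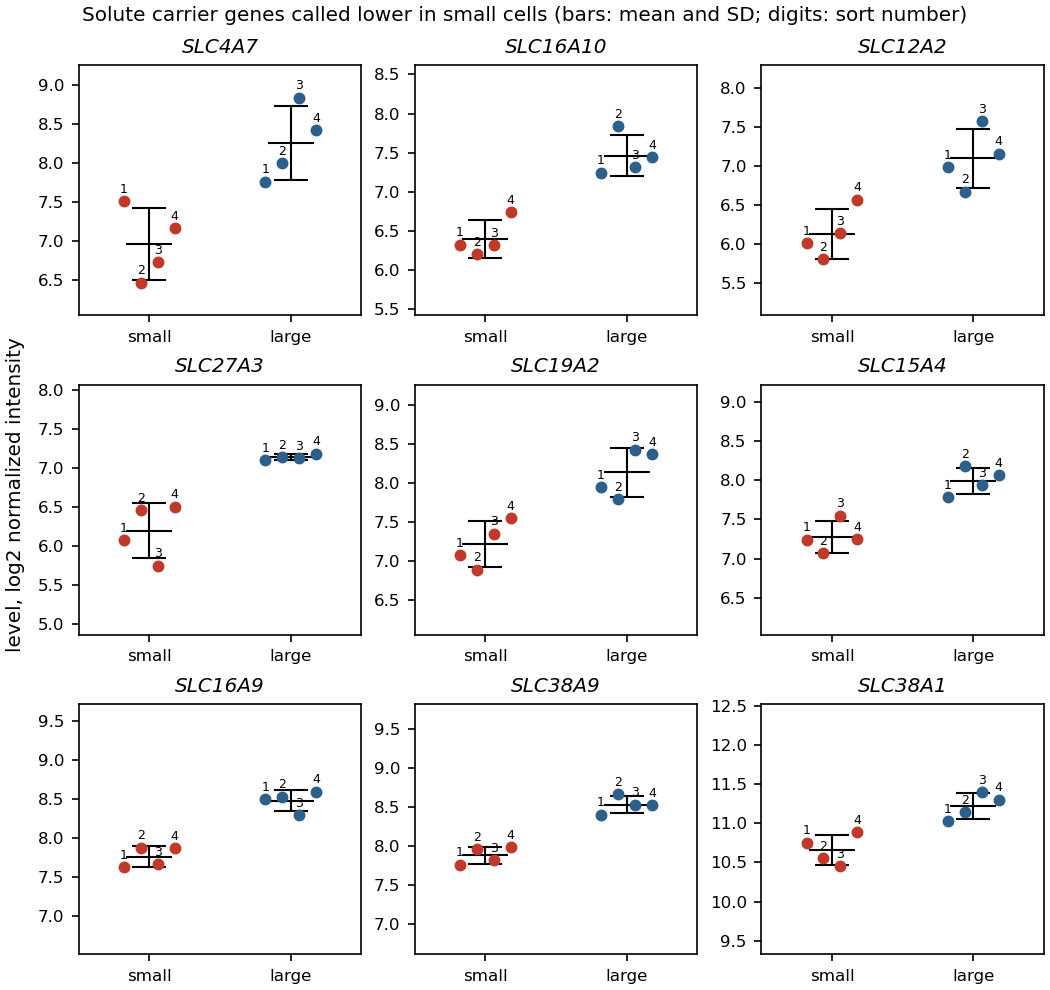
Levels of the 9 called solute carrier genes (vertical axes, log2 normalized intensity, all of the same span) on the 4 small and 4 large arrays, with sort numbers at the points and the mean and SD as bars. In each panel all small values lie below all large values.

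The bicarbonate and anion carriers of SLC4, counted with SLC4A1AP, had 8 tested genes, of which 1, SLC4A7, was lower. Of the other 7, 5 had a negative and 2 a positive difference, and the family median was -0.28. SLC4A2, a chloride-bicarbonate exchanger, was at 5.13, 5.33, 5.47 and 6.27 on the small arrays, against 5.01, 6.71, 6.68 and 6.50 on the large arrays, so that large array 1 was below every small array (-0.67 ± 0.37 SE, adjusted p = 0.387). SLC4A8, a sodium-driven exchanger, had a difference of -0.41 ± 0.22, with 4 of 4 probe sets negative. SLC4A4, an electrogenic cotransporter, was at -0.01 ± 0.26. None of these passed. In SLC26, a family of anion exchangers, 0 of 5 tested genes passed and 4 were negative. The exchanger SLC26A6 was at 4.17, 4.95, 4.39 and 4.22 in small cells, against 4.77, 5.94, 5.13 and 5.85 in large cells (-0.99 ± 0.33 SE, adjusted p = 0.146). The sulfate transporter SLC26A2 differed by -0.49 ± 0.17 without overlap of the groups. Of 5 tested genes of the carbonic anhydrase family, which includes the enzymes that form the bicarbonate, 0 passed, and their median difference was -0.30.

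Among cation-chloride cotransporters (SLC12), 1 of 9 tested genes was lower. SLC12A2 carries sodium, potassium and chloride into the cell and takes part in the recovery of cell volume after shrinkage. It was at 6.01, 5.80, 6.15 and 6.57 on the small arrays, against 6.98, 6.67, 7.58 and 7.16 on the large arrays, and the groups did not overlap. The difference was -0.97 ± 0.23 SE (1.95-fold lower, adjusted p = 0.0483). Its other tested probe set was at -0.19 and had overlapping groups. The family was otherwise mixed, with a median of -0.003. The potassium-chloride exporter SLC12A4 differed by -1.07 ± 0.51 and its relative SLC12A7 by -0.32 ± 0.16. The sodium-chloride cotransporter SLC12A3 was at 1.21 ± 0.55, with large array 1 at 1.71 and the other 7 arrays between 3.16 and 4.61. SLC12A8 was higher on every small than on every large array and did not pass (0.45 ± 0.22 SE, adjusted p = 0.328). Of the kinases that regulate these carriers, none passed: WNK1 was at -0.26 ± 0.15, WNK3 at -0.29 ± 0.17 and OXSR1 at -0.06 ± 0.25, while STK39 was at 0.26 ± 0.16 and WNK2 at 0.39 ± 0.19. WNK2 was higher on every small than on every large array. In the sodium-proton exchanger family (SLC9), 0 of 7 tested genes passed and the one with the smallest p was SLC9D1, at -0.39 ± 0.18 (adjusted p = 0.29).

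The sodium-potassium pump sets the gradient that many carriers use, and 3 of its subunits were tested. All 3 were beta subunits, so the values do not cover the whole pump. The beta subunit ATP1B3 was at 10.69, 10.79, 10.98 and 11.26 on the small arrays, against 11.40, 11.31, 11.50 and 11.79 on the large arrays. These groups did not overlap, and the difference of -0.57 ± 0.14 SE did not pass (adjusted p = 0.0611). ATP1B1 differed by -0.80 ± 0.24 and ATP1B2 by -0.10 ± 0.28, with overlapping groups.

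In the monocarboxylate transporter family (SLC16), 2 of 6 tested genes were lower, SLC16A10 and SLC16A9. SLC16A9, a carnitine transporter, was at 7.63, 7.87, 7.66 and 7.87 in small cells, against 8.49, 8.53, 8.29 and 8.59 in large cells. The groups did not overlap, with an SD of 0.13 in each, and the gene was 1.65-fold lower (-0.72 ± 0.15 SE, adjusted p = 0.0278). SLC16A7, which carries lactate and pyruvate, was at -0.08 ± 0.31 and SLC16A5 at -0.09 ± 0.21. The antisense RNA SLC16A1-AS1 was at 0.27 ± 0.24. Several monocarboxylate transporters need a single-pass glycoprotein, basigin (BSG) or embigin (EMB), to reach the plasma membrane. BSG was at 7.90, 8.08, 7.62 and 8.13 on the small arrays, against 8.77, 9.14, 8.40 and 8.58 on the large arrays, and it was lower in small cells (-0.79 ± 0.19 SE, adjusted p = 0.0467). EMB was at 7.37, 7.67, 7.38 and 7.97 in small cells, against 8.28, 8.44, 8.11 and 8.61 in large cells (-0.76 ± 0.18 SE, adjusted p = 0.049). Neither gene's groups overlapped. Over 8 fits that each left out 1 array, BSG kept its call in 0 and EMB in 2. NPTN, which belongs to the same glycoprotein family, differed by -0.60 ± 0.19 (adjusted p = 0.123). Of 15 tested chaperones, scaffolds and kinases of carriers, BSG and EMB were the 2 that passed, where 1.69% of all genes were called lower.

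The amino acid carriers of SLC38 had 2 of 8 tested genes lower, and all 8 had a negative difference, with a family median of -0.40. SLC38A1 takes up glutamine with sodium at the plasma membrane. It had one of the highest mean levels of the tested carriers, at 10.75, 10.56, 10.45 and 10.89 on the small arrays, against 11.03, 11.14, 11.40 and 11.30 on the large arrays. The difference was small but outside the spread (1.47-fold lower, -0.56 ± 0.13 SE, adjusted p = 0.0424). All 3 of its probe sets lay between -0.61 and -0.56, each without overlap of the groups. SLC38A9 is a lysosomal membrane protein through which the arginine content of the lysosome is signalled to the growth-promoting kinase complex mTORC1. On the small arrays it was at 7.76, 7.96, 7.82 and 7.98, against 8.40, 8.67, 8.53 and 8.52 on the large arrays (1.57-fold lower, -0.65 ± 0.14 SE, adjusted p = 0.0346). A dimmer probe set of SLC38A9 was at 0.10 ± 0.28. SLC38A7, a lysosomal glutamine exporter, differed by -0.41 ± 0.20, with 4 of 4 probe sets negative, and did not pass.

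In the SLC6 family of sodium- and chloride-coupled carriers, 0 of 11 tested genes passed and 8 were negative. The creatine transporter SLC6A8 was at 6.93, 6.88, 7.29 and 7.22 in small cells, against 7.79, 8.0, 8.07 and 7.48 in large cells. The groups did not overlap, and the difference of -0.75 ± 0.18 SE just missed the threshold (adjusted p = 0.0527). SLC6A8 has near-identical pseudogene copies, so its probe sets may read them too. The taurine transporter SLC6A6 was at 8.06, 8.12, 8.96 and 8.87 in small cells, against 8.85, 9.31, 9.79 and 9.83 in large cells, with small arrays 3 and 4 above large array 1 (-0.94 ± 0.25 SE, adjusted p = 0.0757), and its other probe set was at 0.34. In SLC1, the glutamate and neutral amino acid carriers, 0 of 6 passed and 3 were negative. SLC1A2, a glutamate transporter of astrocytes, had the smallest p there, with 0.97 ± 0.56 on its brightest probe set, while its 2 other tested probe sets were at -0.99 and -0.58. The direction of SLC1A2 is therefore not settled. All 3 tested genes of SLC43, a family that includes carriers of neutral amino acids, were negative, from -0.29 to -0.19, and SLC43A1 was at -0.27 ± 0.21.

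Peptide carriers (SLC15) had 1 of 4 tested genes lower. SLC15A4 exports histidine and short peptides from the lysosome with protons. It was at 7.24, 7.07, 7.55 and 7.24 on the small arrays, against 7.79, 8.18, 7.94 and 8.06 on the large arrays, without overlap (1.65-fold lower, -0.72 ± 0.17 SE, adjusted p = 0.0447). Its other probe set differed by -0.78 and passed among all probe sets tested (adjusted p = 0.0309). In that fit the brighter probe set, which represents the gene, did not pass (adjusted p = 0.0546). Of other lysosomal exporters, sialin (SLC17A5), which releases sialic acid, was at 6.25, 5.82, 6.44 and 5.97 in small cells, against 6.49, 7.05, 6.72 and 7.11 in large cells. Its difference of -0.72 ± 0.21 SE did not pass (adjusted p = 0.103), although the groups did not overlap. SLC66A1, an exporter of cationic amino acids, was at -0.38 ± 0.23. SLC36A1 and SLC36A4, carriers of small amino acids, were at 0.12 ± 0.45 and 0.07 ± 0.17. In SLC17 as a whole, which includes vesicular glutamate transporters, 4 of 6 tested genes were positive. SLC17A1 was higher on every small array, at 4.61, 4.69, 4.22 and 4.38 in small cells, against 2.91, 3.93, 2.50 and 4.17 on the large arrays (1.10 ± 0.46 SE, adjusted p = 0.249), where arrays 1 and 3 lay below the filter of 3.62.

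**Figure D3:**
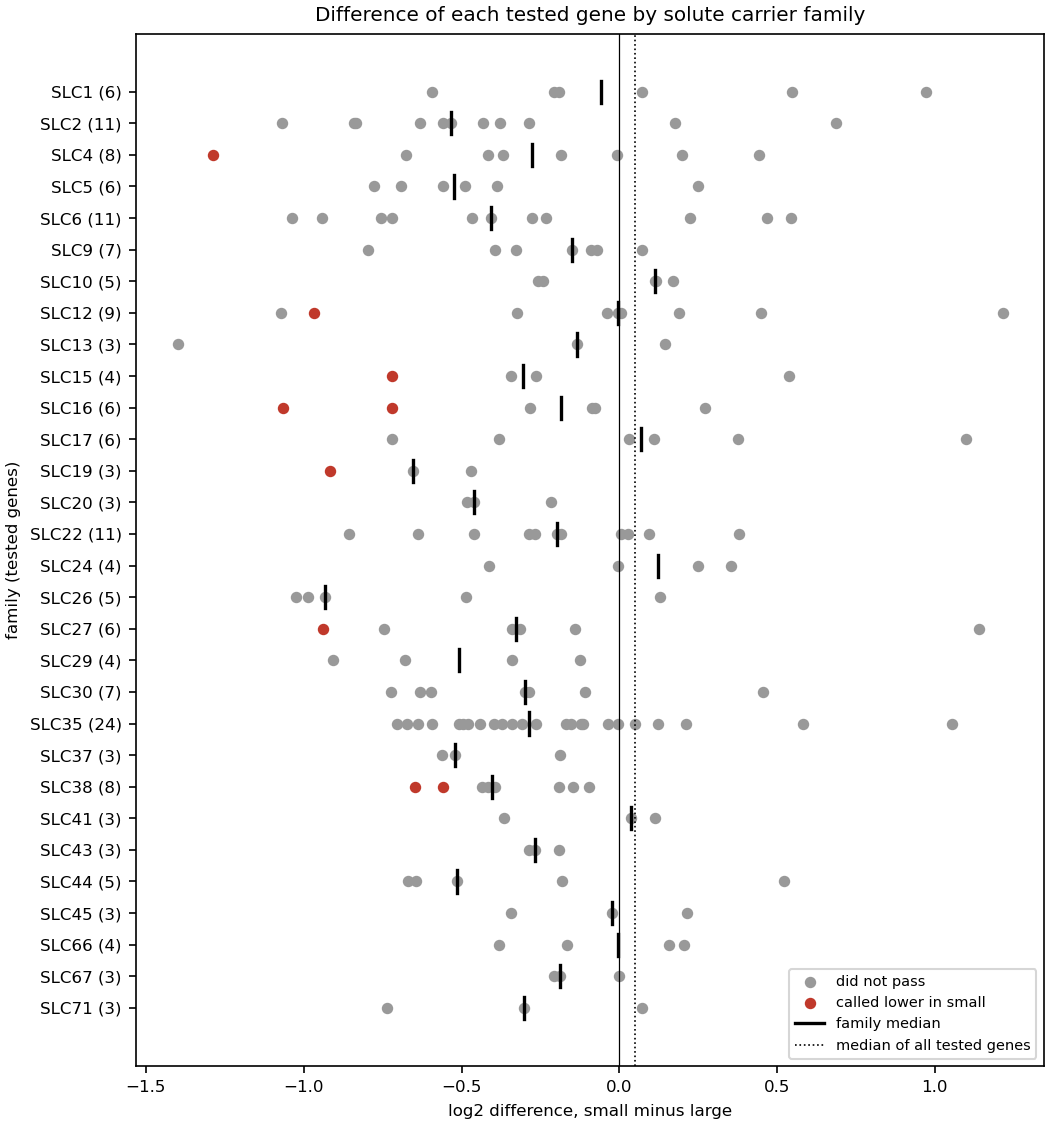
Log2 difference, small minus large (horizontal axis), of each tested gene in the 30 families with at least 3 tested genes (vertical axis, number tested in brackets). Red points are the called genes, black ticks are family medians and the dotted line is the median of all genes, 0.05; 26 of the 30 family medians are below 0.

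Of the 30 families with at least 3 tested genes, 26 had a median below 0 and 4 had one above. The 4 were SLC10, SLC17, SLC24 and SLC41, with medians of 0.11, 0.07, 0.12 and 0.04. None of these 4 had a called gene. Family counts include the noncoding RNAs and pseudogenes named after a carrier, and also SLC2A4RG and SLC4A1AP, which are not carriers.

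The facilitated hexose carriers (SLC2), counted with SLC2A4RG, had 0 of 11 tested genes called, and 9 were negative, with a median of -0.53. SLC2A3, a glucose transporter of high affinity, was at 11.01, 10.84, 11.66 and 11.01 on the small arrays, against 11.44, 11.73, 11.99 and 11.58 on the large arrays. Small array 3 lay above large arrays 1 and 4, and the difference was -0.56 ± 0.17 SE (adjusted p = 0.113). All 3 of its probe sets were negative, and probe sets shared with its near-identical copy SLC2A14 were left out. SLC2A1, the widely expressed glucose transporter, was at 7.75, 8.33, 7.23 and 8.32 in small cells, against 8.28, 8.95, 7.89 and 8.02 in large cells. Its groups overlapped (-0.38 ± 0.27 SE, adjusted p = 0.538). SLC2A13, a proton-coupled carrier of myo-inositol, was at 6.02, 6.0, 5.96 and 6.45 in small cells, against 6.32, 7.21, 7.10 and 7.16 in large cells, so that large array 1 lay below small array 4 (-0.84 ± 0.23 SE, adjusted p = 0.0789). SLC2A10 differed by -0.63 ± 0.25. The transcription factor gene SLC2A4RG, on the other side, was at 0.69 ± 0.29, with its other probe set at -0.44.

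Of the sodium-coupled carriers of SLC5, 0 of 6 tested genes passed and 5 were negative, with a median of -0.52. The myo-inositol transporter SLC5A3 was at 7.10, 7.33, 7.05 and 7.64 on the small arrays, against 8.01, 7.93, 7.82 and 8.14 on the large arrays, and its groups did not overlap (-0.69 ± 0.17 SE, adjusted p = 0.0611). The other probe sets of SLC5A3 were at -0.91 and 0.26. SLC5A6, which takes up biotin and pantothenate, differed by -0.49 ± 0.18. In SLC37, carriers of sugar phosphates in the endoplasmic reticulum, all 3 tested genes were negative and none passed. The glucose 6-phosphate carrier SLC37A4 was at 7.02, 6.77, 7.29 and 6.96 in small cells, against 7.25, 7.68, 7.51 and 7.69 in large cells (-0.52 ± 0.18 SE, adjusted p = 0.162).

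Of 8 tested vitamin carriers 6 were negative and 1 passed. In SLC19, all 3 tested genes were negative and SLC19A2 was called. The reduced folate carrier SLC19A1 was at 5.85, 6.48, 6.56 and 6.24 on the small arrays, against 7.48, 6.96, 6.58 and 6.73 on the large arrays, with small array 3 just below large array 3 (-0.66 ± 0.23 SE, adjusted p = 0.173). Its relative SLC19A3, a thiamine transporter too, was at -0.47 ± 0.35. The riboflavin transporter SLC52A2 was at 6.80, 7.12, 6.69 and 7.17 in small cells, against 7.25, 7.54, 7.89 and 7.49 in large cells, and did not pass on this probe set (-0.60 ± 0.19 SE, adjusted p = 0.127). A dimmer probe set of SLC52A2 differed by -1.60 ± 0.34 and passed among the 32768 probe sets tested (adjusted p = 0.0372). The folate carrier SLC46A1 was at -0.36 ± 0.39.

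Zinc carriers of SLC30 move zinc out of the cytosol, to the outside or into the secretory pathway. Of 7 tested genes 0 passed and 6 were negative, with a median of -0.30. SLC30A6, which pairs with SLC30A5 in the early secretory pathway, was at 7.22, 7.27, 6.93 and 7.22 on the small arrays, against 7.81, 7.79, 7.92 and 7.65 on the large arrays (-0.63 ± 0.16 SE, adjusted p = 0.0611). SLC30A5 differed by -0.29 ± 0.15 and SLC30A7, which loads zinc into the Golgi, by -0.60 ± 0.18. For these 3 genes the groups did not overlap, although the 5 tested probe sets of SLC30A5 ran from -0.87 to 1.19. A dimmer probe set of SLC30A7 differed by -0.94 ± 0.21 and passed among the probe sets (adjusted p = 0.0485). SLC30A1, the zinc exporter of the plasma membrane, was at 6.89, 6.35, 7.35 and 7.61 in small cells, against 7.48, 7.30, 7.85 and 8.47 in large cells, with overlap (-0.72 ± 0.29 SE, adjusted p = 0.229). SLC30A9 was nearly level, at -0.11 ± 0.15. Metallothioneins, small proteins that bind zinc and are induced by it, had 0 of 8 tested genes called together with the zinc-sensing factor MTF1, and 7 of the 8 were positive, with a median of 0.16.

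Of 8 tested carriers of iron, copper and magnesium 0 passed and 5 were negative. SLC31A1, which takes up copper, was at -0.43 ± 0.19. SLC11A2, which takes up ferrous iron, was at -0.26 ± 0.16, and its 5 probe sets ran from -0.93 to 0.72. The iron exporter SLC40A1 was at 2.37, 4.04, 4.67 and 5.09 in small cells, against 4.86, 4.77, 4.08 and 4.79 in large cells, and a further probe set of it was at 1.28 (-0.59 ± 0.52 SE, adjusted p = 0.627). SLC41A1, a magnesium carrier, was lower on every small than on every large array and did not pass (-0.36 ± 0.17 SE, adjusted p = 0.314).

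SLC35, which includes the nucleotide sugar carriers that feed glycosylation in the endoplasmic reticulum and Golgi, was the family with the most tested genes, 24. The counts are those of the family and not of nucleotide sugar carriers alone. None was called, 19 were negative and the median was -0.29. SLC35A3, which brings UDP-N-acetylglucosamine into the Golgi, was at 6.61, 6.46, 6.45 and 6.49 on the small arrays, against 6.85, 7.26, 7.31 and 7.41 on the large arrays (-0.70 ± 0.18 SE, adjusted p = 0.0611). The groups of SLC35A3 did not overlap, but its 2 other probe sets were at -0.08 and 0.24. The groups of SLC35A5, SLC35B4 and SLC35F2 did not overlap either, with differences of -0.40 ± 0.16, -0.51 ± 0.18 and -0.59 ± 0.21. SLC35B1, which brings ATP into the endoplasmic reticulum, was at -0.26 ± 0.15 (adjusted p = 0.429). On the other side, SLC35C1, the GDP-fucose carrier, was at 5.47, 5.72, 5.64 and 5.40 in small cells, against 3.07, 4.72, 4.90 and 5.31 in large cells (1.05 ± 0.40 SE, adjusted p = 0.207). Large array 1 was the lowest of these. SLC35D2 was at 7.94, 7.83, 8.13 and 7.96 in small cells, against 7.0, 7.42, 7.77 and 7.34 in large cells (0.58 ± 0.18 SE, adjusted p = 0.123), while 1 of its 3 probe sets was negative. The acetyl-CoA carrier of the endoplasmic reticulum, SLC33A1, differed by -0.66 ± 0.21 without overlap (adjusted p = 0.127).

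Of 6 tested nucleoside carriers 0 passed. In SLC29, the equilibrative carriers, 4 of 4 were negative, and in SLC28, the sodium-coupled ones, both were positive, with SLC28A2 at 0.43 ± 0.75 and SLC28A3 at 0.15 ± 0.27. SLC29A1, which acts at the plasma membrane, was at 5.73, 6.23, 6.25 and 6.53 on the small arrays, against 6.56, 7.24, 7.24 and 7.34 on the large arrays. Its groups did not overlap (-0.91 ± 0.23 SE, adjusted p = 0.0609). Among the 6 tested fatty acid transport proteins (SLC27) 1 was lower, SLC27A3, and 5 were negative. SLC27A5 was at 6.24, 7.0, 6.06 and 6.01 in small cells, against 2.17, 6.33, 6.40 and 5.85 in large cells, with large array 1 far below the other 7 arrays (1.14 ± 0.72 SE, adjusted p = 0.463). Of 5 tested genes of the choline-like carriers (SLC44) 4 were negative. The choline transporter SLC44A1 was at 9.82, 9.09, 9.80 and 9.62 in small cells, against 10.05, 10.11, 10.13 and 10.11 in large cells (-0.52 ± 0.16 SE, adjusted p = 0.116), and 5 of its 6 probe sets were negative. The phosphate carrier SLC20A1 was at 8.40, 8.18, 8.75 and 8.24 in small cells, against 8.66, 8.97, 8.99 and 8.88 in large cells (-0.48 ± 0.16 SE, adjusted p = 0.151). The citrate carrier SLC13A5 was at 2.24, 2.18, 4.26 and 5.81 in small cells, against 4.67, 5.20, 4.95 and 5.27 in large cells, with small arrays 1 and 2 far below the others (-1.40 ± 0.66 SE, adjusted p = 0.312). The vesicular monoamine transporter SLC18A2 was at -0.79 ± 0.33 at a low level (adjusted p = 0.248). A dimmer tested probe set of SLC18A2 was at 0.001 ± 0.55. The organic cation and anion carriers of SLC22 had 0 of 11 tested genes called, 7 negative, with SLC22A9 at -0.64 ± 0.39. SLC10A3, SLC45A4 and SLC67A1, the genes of their families with the smallest p, were at -0.24 ± 0.31, -0.34 ± 0.23 and -0.21 ± 0.26. SLC24A3-AS1, an antisense RNA, was at 0.35 ± 0.28, and SLC71A2 at -0.74 ± 0.20 (adjusted p = 0.0809).

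Probe sets of 1 gene did not always have the same sign. Of the 106 solute carriers with several tested probe sets, 53 had probe sets of both signs. At the level of probe sets, 11 of 381 were lower (2.89%, against 1.30% of all 32768) and 0 higher. Those 11 lay in 10 genes, 8 of which were called as genes; SLC12A2 was called as a gene only, and SLC30A7 and SLC52A2 only through a probe set that was not their brightest. When the mean of all tested probe sets stood for a gene, 207 of all genes were lower. Among them were 8 carriers, 5 of which were among the 9 called. The other 4 no longer passed, with SLC4A7 at -0.76, SLC16A10 at -0.85, SLC12A2 at -0.58 and SLC38A9 at -0.28. Of the called carriers, SLC4A7, SLC16A10 and SLC27A3 rest on probe sets ending in _s_at or _x_at, which can bind several transcripts. The brightest probe sets of many other carriers also have such endings, among them those of SLC6A8, SLC52A2, SLC2A3, SLC2A1, SLC19A1, SLC37A4, SLC11A2, SLC1A2, SLC30A5 and SLC35C1.

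**Figure D4:**
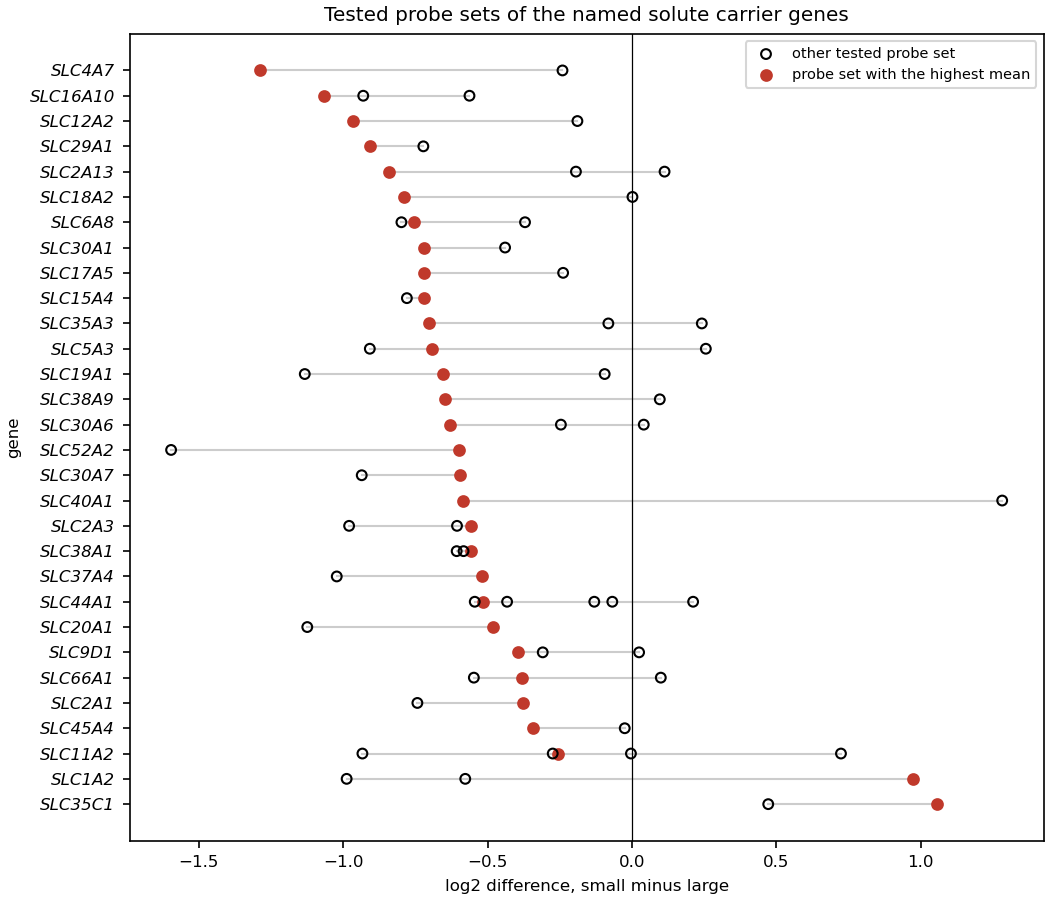
Log2 difference, small minus large (horizontal axis), of every tested probe set of the named genes that have more than 1 (vertical axis). Filled points are the probe sets with the highest mean, which represent the gene, and open points the others; SLC40A1, SLC1A2 and SLC11A2 have probe sets far apart and on both sides of 0.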

How the data were processed

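RNA of 4 small and 4 large sorts of H1 cells was measured on 8 one-colour arrays. The deposited table gives a linear intensity for each of 54675 probe sets and each array; which program wrote it, and its background correction and scaling, are not given in the sources used here. Groups and sort numbers were taken from the sample titles.

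Intensities were moved to log2 after adding 1.81, the 10th percentile of all values, which understates changes of dim genes, and quantile normalized because array brightness at the 75th percentile spanned 1.30 log2 units. The 62 control probe sets were left out. Probe sets with a mean above the 40th percentile (3.62) were tested, 32768 in all. Of the probe sets, 41091 have 1 gene symbol in GEO's platform annotation, and symbols were updated by gene ID from RefSeq (41037 matched); 1801 with several symbols, 26 of them with a solute carrier, and 11721 with none were not used as genes. A gene was represented by its brightest tested probe set. Small minus large was fitted with limma 3.58.1 in R 4.3.3 (lmFit, eBayes with a variance trend), two-sided, with Benjamini-Hochberg adjustment over all genes or, where stated, all probe sets. The number of arrays limits the precision, with a median SE over genes of 0.24. RNA quality was set against the groups in an exact permutation test (70 assignments, two-sided). The procedure was tested on simulated data.

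The members and lists were chosen with earlier results of these data known. The rule for named genes took every called carrier, the smallest p in each family with at least 3 tested genes and none called, a list of well known carriers, up to 5 uncalled genes with the largest differences without overlap, called partner genes, and genes called through another probe set; it named 44 carriers. Other genes named were chosen after their values were seen.

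Alternatives covered scaling, pseudocount, filter, probe sets, variance model, array weights, replicate block, thresholds and each array left out.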

Additional observations from a re-analysis of the deposited data

Results flagged for a closer look

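Within the 4 arrays of a group, 1 array stood apart from the other 3 by more of the group's range than Dixon's critical value allows in 6 of 88 groups of named genes; chance gives about 1 in 20. SLC2A13 had this in both groups: small array 4 was at 6.45 with the other small arrays between 5.96 and 6.02, and large array 1 was at 6.32 with the other large arrays between 7.10 and 7.21. SLC29A1 was at 6.56 on large array 1, with the other large arrays between 7.24 and 7.34. SLC30A6 was at 6.93 on small array 3, with the others between 7.22 and 7.27. SLC40A1 was at 4.08 on large array 3, with the others between 4.77 and 4.86. SLC24A3-AS1 was at 4.43 on large array 2, with the others between 4.97 and 5.07. Of the 6 arrays that stood apart, 2 were large array 1.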

How the results depend on the processing

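The 9 called carriers were lower under every alternative run, in 187 of 187 values, of which 92 passed. Since they were picked on these same arrays, their sign was largely fixed in advance and is no separate support. The count of carriers lower was 0 without normalization between arrays, 0 with median centring and 0 without the variance trend. In each of these settings 0 of all genes were called in either direction, so the counts of 0 are not particular to carriers. At an unadjusted p under 0.05 in limma, 14, 28 and 41 of 218 carriers were lower in these fits. In the same order 0, 4 and 6 carriers were higher. Of all genes 3.36%, 10.7% and 15.2% had such a p, with both directions counted. The count of carriers called lower was 4 with 75th percentile scaling, 8 with the mean of probe sets (5 of the 9) and 5 without x_at and s_at probe sets. Of all genes 148, 207 and 164 were lower in these fits. For carriers it was 14 with a filter at the 60th percentile, 23 with array weights, 17 at an adjusted p under 0.1 and 0 under 0.01. Over all genes the counts were 296, 534, 433 and 51. With each array left out, 0 to 17 carriers and 60 to 357 of all genes were lower. With the 3′ to 5′ measure as a covariate, chosen after seeing the data, 1 carrier was lower and 1 higher, against 135 and 20 of all genes. The median of the carriers was -0.40 without normalization, -0.17 with a pseudocount of 16 and -0.19 without a filter, and -0.31 to -0.24 with each array left out. The median of all genes was -0.05, 0.10 and 0.09 without normalization, under median centring and under scaling to the 75th percentile. With a replicate block 20 carriers were lower, the 9 called ones among them, and of all genes 513 were lower and 240 higher, against 249 and 44; the deviations of equally numbered arrays correlated with r of 0.114, 0.126, 0.234 and 0.0138, and those of unequal numbers with -0.18 to 0.11. Small arrays 1 to 3 correlated best with their own number and small array 4 did not. The labels do not say what a number marks, so whether the numbers pair the sorts is not settled. SLC1A2 was at -1.06 without normalization, -0.91 with median centring, -0.91 with 75th percentile scaling, -0.20 with the mean of probe sets, -0.99 without x_at and s_at probe sets and -1.20 to 1.07 with each array left out. SLC40A1 was at 0.35 with the mean of probe sets. The cause of these changes was not tested.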

Other observations

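Of 26 tested ABC transporters, which use ATP to move substrates, 1 was lower in small cells, where 1.69% of all genes were. The median was -0.30, against 0.05 for all genes. ABCC1, an exporter of glutathione conjugates and drugs, was at 7.72, 7.57, 7.96 and 8.36 on the small arrays, against 9.09, 8.94, 8.72 and 8.73 on the large arrays, without overlap (-0.97 ± 0.18 SE, adjusted p = 0.0202); it kept its call in 4 of 8 fits that each left out 1 array. Of 10 tested organic anion transporters of the SLCO family 0 passed, with a median of -0.004, and of 5 aquaporins, the water channels, 0 passed, with a median of -0.06.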
